A study of Mus musculus with 77 samples.

Results

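The libraries described here hold the ribosome-bound RNA of glial cells in mouse dorsal root ganglia (DRG) 12 h after a sciatic nerve lesion. The members are 6 of the 77 samples of the series, taken by their labels: 3 Dhh RiboTag pull-downs at 12 h and 3 Dhh RiboTag pull-downs from naive, uninjured ganglia of the same injury series. All 6 came from ICR mice carrying Ribotag(Homo) X Dhh cre(Het), adult males per the study's methods, whose lumbar DRG were taken and subjected to an immunoprecipitation (IP) against the HA tag. Every library, naive ones included, therefore carries the tagged Rpl22 allele and Dhh-driven Cre, and there was no sham-operated group. The same naive libraries serve every time after injury. The labels give no hour of the day, and they do not say whether replicates are separate animals. The p-values therefore cover only the variation among these libraries. Further Dhh pull-downs at 4 h (3 libraries) and 24 h (2 libraries), and pull-downs at 12 h and from naive DRG of the neuronal line Ribotag(Homo) X Isl1 cre(Het) (3 libraries each), are used only to place the 12 h values.

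In RiboTag mice, Cre recombination switches the ribosomal protein Rpl22 to a copy with an HA epitope, and pulling down HA recovers the RNA bound to ribosomes of the recombined cells. The Dhh promoter is active in Schwann cell precursors, so the pull-down takes in both the Schwann cells that wrap axons within the ganglion and the satellite glia that surround each neuronal cell body. After a nerve lesion, Schwann cells are known to leave the myelinating state for a repair state, and satellite glia to become reactive and to alter their potassium and glutamate handling. A change in ribosome-bound RNA can come from RNA abundance or from ribosome loading. The 2 cannot be told apart here, since no input libraries of the Dhh line after injury were analysed here. In bulk samples, fewer cells of a type and less RNA per cell cannot be told apart either.

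The label field for the cell type reads sensory neurons for these 6 libraries, whereas their genotype names the glial driver, and the marker genes side with the genotype. Levels are given as CPM, a gene's count per 1000000 counts of its library, scaled by trimmed-mean (TMM) factors within each table, so that the Dhh and Isl1 tables were scaled separately. The 12 myelinating Schwann cell markers, all listed, summed to 24217, 27174 and 35475 CPM at 12 h, against 20966, 25368 and 23740 CPM in naive DRG, and to 781 to 1244 CPM over 8 listed markers in the Isl1 libraries. The 18 sensory neuron markers summed to 1645, 1827 and 1906 CPM at 12 h, against 1250, 1522 and 1389 CPM in naive DRG, and to 32437 to 37180 CPM in the Isl1 libraries. Dhh itself, the glial signal whose promoter drives Cre, measured 425, 543 and 657 CPM at 12 h and 482, 585 and 764 CPM in naive DRG. Its log2 change (-0.17 ± 0.22, adjusted p = 0.60) did not pass the test, and leaving out naive replicate 3 turned it to 0.02. Rpl22, the tagged gene, measured 20.4, 19.1 and 17.5 CPM at 12 h and 26.1, 23.6 and 30.0 CPM in naive DRG (log2 change -0.49 ± 0.21, adjusted p = 0.096). That small fall was lost when any one of the 6 libraries was left out. The libraries held 44253934 to 46730309 counts at 12 h and 39819566 to 52297771 counts in naive DRG, and the 12 h libraries stood apart from the rest on the first principal component, which took 39.7% of the variance. Among the 3 libraries at 12 h, replicate 1 was the lowest in 21 of the 22 immediate early genes described below, and replicate 3 the highest in 18.

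At 12 h after injury, the Dhh pull-down held more RNA of most immediate early transcription factors tested. The same was seen for many stress and cytokine response, basement membrane and glucocorticoid-responsive genes. It held less RNA of several enzymes of fatty acid and myelin lipid synthesis. Sensory neuron markers were also higher, as described below. Of 11000 genes tested by edgeR's quasi-likelihood test with Benjamini-Hochberg adjustment, 3620 passed an adjusted p of 0.1, which is 32.9% of those tested. Of these, 1905 were higher at 12 h (17.3% of genes tested) and 1715 were lower (15.6%), with a median log2 change over all genes of -0.02. The change was at least 1 on the log2 scale for 499 of the higher and 469 of the lower genes, and at least 2 for 104 higher and 20 lower genes, so the largest changes were mostly rises. Log2 changes are given as the 12 h level over the naive level, with their standard error, and adjusted p-values come from that test throughout. Genes that were higher had a median transcript length of 3895 bases and a median naive level of 53.4 CPM, against 2904 bases and 20.7 CPM for the genes not called. The lower genes had a median length of 2962 bases. The part of length or level in the calls was not tested.

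The choice of naive libraries bears on these numbers. Adding 2 further naive Dhh pull-downs, deposited in a separate table of uninjured ganglia, brought the higher genes to 1013 and left 1675 lower genes, over the 9509 genes tested in both tables, with a median log2 change of -0.10. The share of calls that were higher was then 37.7%, against 52.6% with the naive libraries of the injury series alone. This alternative is named below, as the result with added naive libraries, beside calls that it ended, directions that it turned and counts that it moved. Counts of list members under it cover only members tested in both tables. Leaving out each of the 6 libraries in turn gave 2766 to 3820 called genes.

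**Figure D1:**
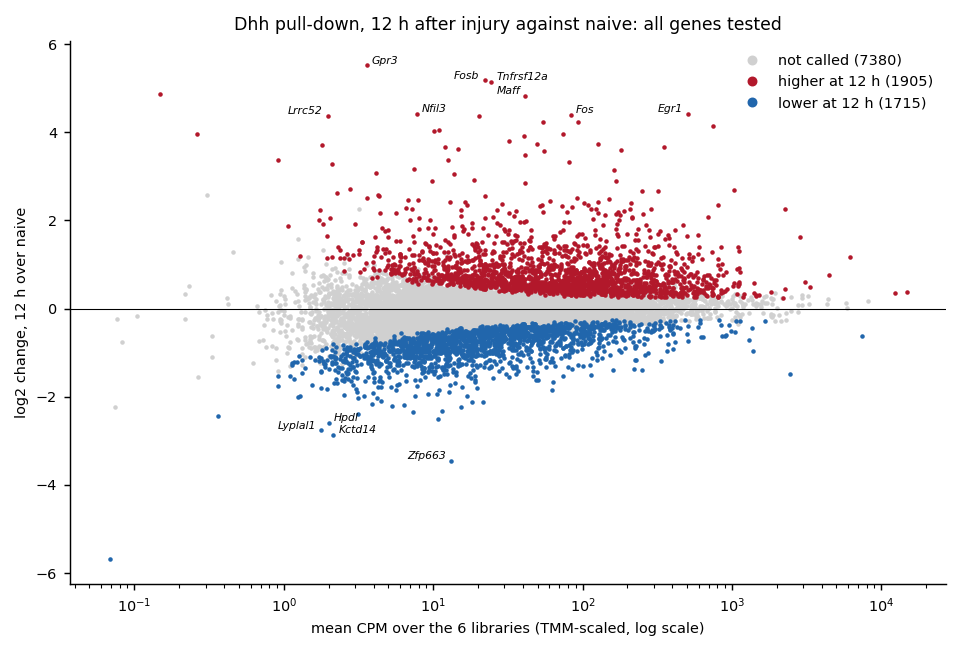
Log2 change at 12 h over naive against the mean level of the 6 Dhh pull-down libraries (TMM-scaled CPM, log axis) for all 11000 genes tested, with each point a gene, coloured by the call at an adjusted p of 0.1. The 1905 higher and 1715 lower genes spread over the whole range of levels, and the 8 largest named rises reach further from 0 than the 4 largest named falls.

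Among the 15 largest rises, the one with the smallest adjusted p was Tnfrsf12a (chr17:23675445-23677468, mm10), which encodes Fn14, the receptor of the cytokine TWEAK. It measured 52.5, 46.9 and 42.2 CPM at 12 h, against 1.15, 1.49 and 1.36 CPM in naive DRG (log2 change 5.14 ± 0.33, adjusted p = 1.9e-07). All 3 libraries at 12 h lay far above every naive library and within a narrow range. Gpr3, a G protein-coupled receptor that raises cyclic AMP without a bound ligand, measured 1.36, 10.0 and 9.65 CPM at 12 h and 0.216, 0.0914 and 0.147 CPM in naive DRG (log2 change 5.51 ± 0.69, adjusted p = 5.0e-05), with replicate 1 well below the other 2 at 12 h. Gadd45b, a stress-induced regulator of MAP kinase signalling and DNA demethylation, measured 25.1, 42.9 and 47.9 CPM at 12 h and 1.29, 1.01 and 3.24 CPM in naive DRG (log2 change 4.37 ± 0.41, adjusted p = 4.8e-06). The 15 largest rises and falls were drawn only from genes whose groups did not overlap. The same held for the 5 largest changes against other times. List members below were named mostly by smallest p, which favours such genes. Remarks on overlap for named genes are therefore descriptions and no further evidence. Frat2, a GSK3-binding protein of the Wnt pathway, measured 13.9, 22.0 and 25.8 CPM at 12 h and 1.51, 0.823 and 1.40 CPM in naive DRG (log2 change 4.04 ± 0.39, adjusted p = 5.3e-06). Lrrc52, an accessory subunit of potassium channels, was listed at low levels, 2.35, 4.16 and 4.75 CPM at 12 h and 0.263, 0.0686 and 0.203 CPM in naive DRG (log2 change 4.37 ± 0.54, adjusted p = 4.6e-05). Cyr61, a secreted matricellular protein and a target of the Hippo pathway effectors, spread widely, with 49.6, 131 and 351 CPM at 12 h and 6.71, 11.2 and 10.3 CPM in naive DRG (log2 change 4.23 ± 0.50, adjusted p = 3.5e-05). The other genes among the 15 largest rises were immediate early factors and their relatives, a phosphatase and a chemokine, described with their groups.

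**Figure D2:**
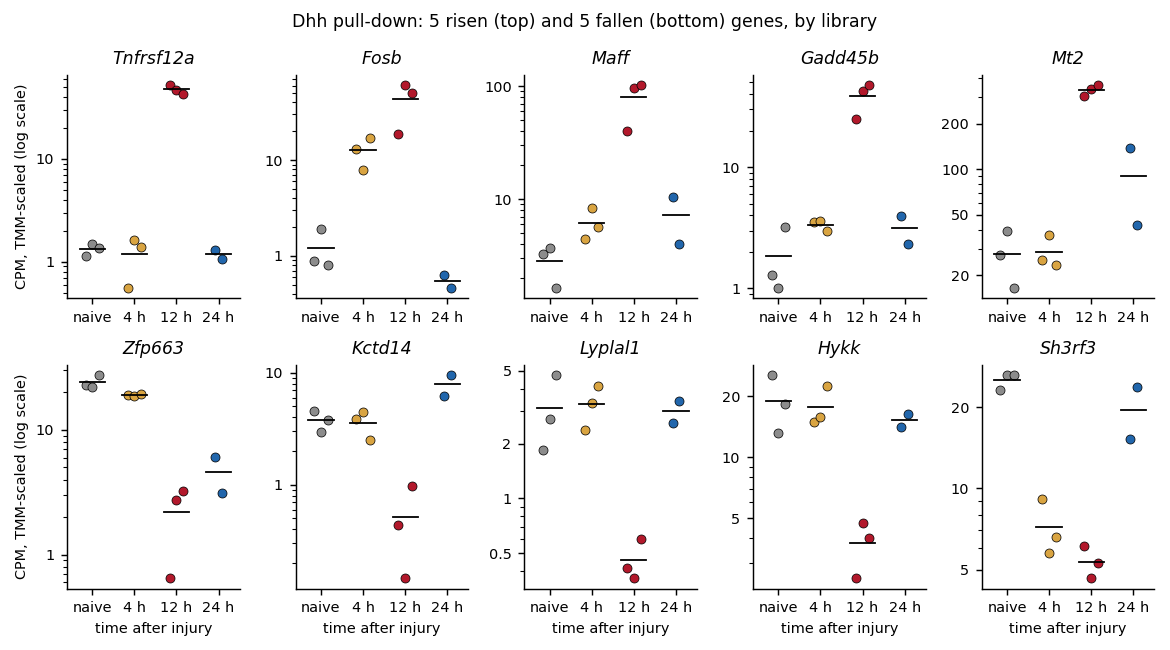
TMM-scaled CPM (log axis) in each Dhh pull-down library for 5 risen genes (top) and 5 fallen genes (bottom), by time after injury, where points are libraries and lines are means. Tnfrsf12a lies between 42.2 and 52.5 CPM at 12 h and under 2 CPM at every other time, and Lyplal1 is under 1 CPM only at 12 h.

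Immediate early genes are switched on within minutes of a stimulus without new protein synthesis, and most encode transcription factors. Of the 24 tested, 22 were higher at 12 h (91.7%, against 17.3% over all genes) and none was lower. The median log2 change was 3.02, against -0.02 over all genes. Every 12 h library lay above every naive library in 20 of the 24, as in 19.6% of all genes tested, and the groups overlapped for the called genes Egr3 and Nr4a1. The genes that did not pass were Ier5 (log2 change 0.70) and Klf2 (0.45). Fosb (chr7:19302696-19310051), a dimer partner of Jun proteins in the AP-1 complex, measured 18.5, 61.4 and 49.7 CPM at 12 h and 0.886, 1.90 and 0.811 CPM in naive DRG (log2 change 5.18 ± 0.48, adjusted p = 4.0e-06). Fos (chr12:85473890-85477273) measured 49.1, 208 and 219.8 CPM at 12 h and 8.55, 7.75 and 6.30 CPM in naive DRG (log2 change 4.40 ± 0.42, adjusted p = 5.4e-06). For both genes replicate 1 at 12 h was the lowest of the 3 and still above every naive library. Jun, which in Schwann cells is known as a driver of the repair state, measured 137, 296 and 448 CPM at 12 h and 42.7, 40.9 and 35.6 CPM in naive DRG (log2 change 2.89 ± 0.29, adjusted p = 7.6e-06). Egr1, a zinc finger factor, spread most widely, with 118, 850.3 and 1945 CPM at 12 h and 45.1, 43.5 and 47.8 CPM in naive DRG (log2 change 4.42 ± 0.63, adjusted p = 0.00015), a range of more than 10 times within the 12 h group.

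Maff, a small Maf protein, measured 40.4, 97.0 and 103 CPM at 12 h and 3.26, 3.66 and 1.62 CPM in naive DRG (log2 change 4.82 ± 0.45, adjusted p = 4.9e-06). Myc, which drives growth and ribosome synthesis, measured 54.1, 95.3 and 127 CPM at 12 h and 9.41, 6.26 and 5.07 CPM in naive DRG (log2 change 3.74 ± 0.31, adjusted p = 1.2e-06). Klf6 was the most abundant named member, with 1191, 1621 and 2557 CPM at 12 h and 275, 264 and 290.5 CPM in naive DRG (log2 change 2.69 ± 0.21, adjusted p = 1.1e-06). In each of these 3 genes replicate 1 was the lowest library at 12 h. The injury-induced factor Atf3 measured 35.5, 85.5 and 107 CPM at 12 h and 6.20, 6.88 and 7.15 CPM in naive DRG (log2 change 3.49 ± 0.32, adjusted p = 3.4e-06). Arc, an activity-regulated protein known from neurons, measured 42.6, 77.1 and 109.9 CPM at 12 h and 4.53, 4.32 and 6.40 CPM in naive DRG (log2 change 3.91 ± 0.32, adjusted p = 1.1e-06). Csrnp1, a nuclear protein of the same response class, measured 36.4, 120.0 and 152 CPM at 12 h and 4.41, 4.62 and 7.24 CPM in naive DRG (log2 change 4.24 ± 0.41, adjusted p = 6.4e-06). Replicate 1 was again the lowest at 12 h in Atf3, Arc and Csrnp1. Zfp36, which speeds the decay of AU-rich messenger RNAs, measured 108, 195 and 401 CPM at 12 h and 18.6, 21.0 and 13.8 CPM in naive DRG (log2 change 3.72 ± 0.44, adjusted p = 3.6e-05). In all of these genes the 3 libraries at 12 h lay above the 3 naive libraries, a condition of selection for Maff and Csrnp1.

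Because most of these genes rose, their promoters were read from RefSeq (GRCm38.p6, 300 bases running 250 bases before to 50 bases after the start) and searched on both strands for the core motif TGACG of the cyclic AMP response element, which the full element TGACGTCA contains on both strands. Promoters were matched by symbol for 12 of the 15 largest rises, for 17 of the 22 immediate early genes that rose and for 8426 of the 11000 genes tested. Some genes are in both of the first groups. The core motif was found in 7 of the 12 (58.3%), in 36.3% of the promoters of all higher genes, in 26.6% of those of lower genes, in 33.3% of those of genes tested and in 21.0% of 27025 promoters in all. The full element was found in 4.06% of higher, 1.65% of lower, 3.45% of tested and 1.88% of all promoters, the AP-1 motif TGANTCA in 5.62% of higher, 3.46% of lower, 4.43% of tested and 7.93% of all promoters, and the CArG box of serum response factor in 2.03% of higher, 0.751% of lower, 1.19% of tested and 1.57% of all promoters. An AP-1 match cannot overlap a match of the core motif, whereas each full element holds the core motif on both strands. Of the 12 largest rises matched, 1 held the full element (8.33%), 2 held the AP-1 motif (16.7%) and none held the CArG box. Among the 17 immediate early genes matched, 10 held the core motif (58.8%) and none held the AP-1 motif. The full element and the CArG box were each found in 1 of the 17 (5.88%). These are matches of letters in a short window and no measure of binding. The promoters of Fos, Fosb, Nfil3 and Dusp1 are shown because these genes carry the rise and hold the core motif, which is in capitals on whichever strand it stands (TGACG, or its complement CGTCA), as is the full element in Dusp1.
Fos: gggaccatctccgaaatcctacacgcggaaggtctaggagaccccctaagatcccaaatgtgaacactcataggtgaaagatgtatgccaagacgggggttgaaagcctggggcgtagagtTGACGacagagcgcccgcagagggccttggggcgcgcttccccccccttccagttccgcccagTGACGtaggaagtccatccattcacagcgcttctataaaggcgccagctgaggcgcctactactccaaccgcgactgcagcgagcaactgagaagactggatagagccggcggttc
Fosb: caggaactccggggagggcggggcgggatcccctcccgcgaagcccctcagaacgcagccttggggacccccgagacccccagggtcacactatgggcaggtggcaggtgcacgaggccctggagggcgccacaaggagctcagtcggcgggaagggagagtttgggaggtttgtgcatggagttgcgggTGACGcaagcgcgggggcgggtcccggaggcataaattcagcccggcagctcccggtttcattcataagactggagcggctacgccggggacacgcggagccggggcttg
Nfil3: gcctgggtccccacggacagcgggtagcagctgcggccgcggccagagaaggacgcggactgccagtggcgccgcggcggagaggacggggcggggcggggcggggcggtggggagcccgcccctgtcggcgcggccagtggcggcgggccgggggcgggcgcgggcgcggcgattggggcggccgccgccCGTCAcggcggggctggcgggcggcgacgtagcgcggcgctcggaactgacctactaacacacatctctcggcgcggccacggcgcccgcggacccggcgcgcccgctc
Dusp1: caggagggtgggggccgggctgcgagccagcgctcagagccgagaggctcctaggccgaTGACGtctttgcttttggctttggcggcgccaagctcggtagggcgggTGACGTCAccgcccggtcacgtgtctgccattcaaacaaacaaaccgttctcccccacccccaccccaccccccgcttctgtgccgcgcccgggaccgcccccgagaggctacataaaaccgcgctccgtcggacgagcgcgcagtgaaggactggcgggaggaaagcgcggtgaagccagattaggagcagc
Each runs 5′ to 3′ on the gene's strand, Fos at chr12:85473640-85473939 on the plus strand, and on the minus strand Fosb at chr7:19309996-19310295, Nfil3 at chr13:52980990-52981289 and Dusp1 at chr17:26508423-26508722. Fos held 2 core motifs, Fosb and Nfil3 held 1 each, and Dusp1 held 3, of which a pair forms the full element.

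Feedback inhibitors of MAP kinase signalling, which are induced by the pathway they restrain, rose in 8 of 13 cases tested. This is 61.5%, against 17.3% over all genes, with none lower and a median log2 change of 1.03. Dusp1, a phosphatase that inactivates p38 and JNK, measured 49.8, 132 and 233 CPM at 12 h and 10.9, 9.92 and 5.84 CPM in naive DRG (log2 change 3.96 ± 0.43, adjusted p = 1.7e-05). Dusp10, with similar targets, measured 26.4, 29.1 and 43.5 CPM at 12 h and 4.67, 5.03 and 3.37 CPM in naive DRG (log2 change 2.92 ± 0.28, adjusted p = 5.0e-06). Dusp8 measured 30.4, 53.5 and 98.7 CPM at 12 h and 16.1, 15.8 and 14.6 CPM in naive DRG (log2 change 1.97 ± 0.31, adjusted p = 0.00029). For all 3 phosphatases replicate 3 was the highest library at 12 h. Spry2, an inhibitor of receptor tyrosine kinase signals, measured 86.3, 127 and 116 CPM at 12 h and 37.3, 39.3 and 46.6 CPM in naive DRG (log2 change 1.42 ± 0.21, adjusted p = 0.00021). No group overlap was seen in these 4 genes, whereas Dusp4 (log2 change 0.42) and Dusp14 (-0.79) did not pass the test. Among ligands and receptors of the ErbB family, which control Schwann cell survival and myelination, 2 of 5 tested rose and 2 fell. Each share was 40%, against 17.3% higher and 15.6% lower over all genes. Hbegf, an EGF receptor ligand, measured 93.3, 156 and 169.8 CPM at 12 h and 46.1, 39.6 and 49.3 CPM in naive DRG (log2 change 1.64 ± 0.20, adjusted p = 4.0e-05). The neuregulin receptor Erbb3 measured 115, 99.3 and 118 CPM at 12 h and 204, 176 and 148 CPM in naive DRG (log2 change -0.67 ± 0.15, adjusted p = 0.0043). Its call was lost with added naive libraries. The neuregulin Nrg1 measured 23.2, 18.9 and 22.9 CPM at 12 h and 14.8, 16.5 and 13.6 CPM in naive DRG (log2 change 0.54 ± 0.19, adjusted p = 0.047), a call that was lost when 12 h replicate 1, naive replicate 1 or naive replicate 3 was left out, and with added naive libraries. Tgfa, another EGF receptor ligand, measured 112, 111 and 135 CPM at 12 h and 142, 146 and 169 CPM in naive DRG (log2 change -0.35 ± 0.15, adjusted p = 0.095). This call was lost in 8 of the alternatives tried, added naive libraries among them. With added naive libraries 1 member of the family was called higher and none lower.

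Signalling through gp130, the shared receptor of the interleukin 6 family, leads to Stat3 and to acute phase proteins. Of 14 members tested, 7 were higher and 1 was lower (50% and 7.1%, against 17.3% and 15.6% over all genes). The median log2 change was 0.52. Socs3, the feedback inhibitor of this pathway, measured 38.6, 71.3 and 69.6 CPM at 12 h and 3.40, 4.75 and 4.76 CPM in naive DRG (log2 change 3.79 ± 0.29, adjusted p = 9.3e-07). Stat3 measured 532, 459 and 436 CPM at 12 h and 226, 199.6 and 209 CPM in naive DRG (log2 change 1.17 ± 0.13, adjusted p = 1.5e-05). The secreted protease inhibitor Serpina3n measured 1544, 989 and 842 CPM at 12 h and 306, 279.8 and 215 CPM in naive DRG (log2 change 2.07 ± 0.29, adjusted p = 0.00014). In all 3 genes every 12 h library exceeded every naive library. Bcl3, a nuclear partner of NF-kB, measured 6.90, 5.54 and 9.90 CPM at 12 h and 1.37, 0.983 and 1.44 CPM in naive DRG (log2 change 2.56 ± 0.33, adjusted p = 6.0e-05). The oncostatin M receptor Osmr measured 154, 79.9 and 53.9 CPM at 12 h and 33.4, 35.6 and 23.2 CPM in naive DRG (log2 change 1.64 ± 0.29, adjusted p = 0.00080), so that in Serpina3n and Osmr replicate 1 was the highest at 12 h, in contrast to the immediate early genes. The leukaemia inhibitory factor receptor Lifr was the member that fell, with 784, 764 and 681 CPM at 12 h and 1002, 964 and 915 CPM in naive DRG (log2 change -0.37 ± 0.12, adjusted p = 0.034), a fall that was lost without naive replicate 1 and turned to 0.20 with added naive libraries.

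In the TNF receptor and NF-kB group, 9 of 17 tested were higher and 2 lower, with a median log2 change of 0.82. These shares were 52.9% and 11.8%, against 17.3% and 15.6% over all genes. After Tnfrsf12a, the anti-apoptotic ubiquitin ligase Birc3 measured 30.2, 66.8 and 71.6 CPM at 12 h and 12.1, 11.9 and 15.4 CPM in naive DRG (log2 change 2.10 ± 0.26, adjusted p = 4.7e-05). Rela, the main activating subunit of NF-kB, measured 100.4, 96.8 and 125 CPM at 12 h and 50.2, 47.2 and 44.5 CPM in naive DRG (log2 change 1.18 ± 0.15, adjusted p = 5.4e-05). Its inhibitor Nfkbib measured 37.8, 46.2 and 65.6 CPM at 12 h and 14.9, 18.0 and 20.3 CPM in naive DRG (log2 change 1.49 ± 0.22, adjusted p = 0.00018). The 2 members that fell were the death receptor Tnfrsf21 (log2 change -0.94) and the adaptor Traf1 (-0.96). The call for Rela was lost with added naive libraries. Of 11 cytokines and chemokines tested, 5 rose (45.5%, against 17.3% over all genes) and none fell. Cxcl10 (chr5:92346638-92348889), a chemokine for T cells that interferons and NF-kB induce, measured 538, 1508 and 2218 CPM at 12 h and 97.4, 58.8 and 86.1 CPM in naive DRG (log2 change 4.14 ± 0.42, adjusted p = 7.6e-06). Tgfb2 measured 101, 77.8 and 125 CPM at 12 h and 40.0, 37.6 and 39.7 CPM in naive DRG (log2 change 1.37 ± 0.16, adjusted p = 3.7e-05). The monocyte chemokine Ccl2 was low, with 0.736, 5.23 and 5.75 CPM at 12 h and 0.647, 0.366 and 0.885 CPM in naive DRG (log2 change 2.61 ± 0.70, adjusted p = 0.013). Its replicate 1 at 12 h lay within the naive range. Cxcl12, which attracts leukocytes and guides neural cells, measured 9.11, 9.70 and 4.60 CPM at 12 h and 3.83, 4.02 and 4.09 CPM in naive DRG (log2 change 0.97 ± 0.29, adjusted p = 0.024).

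Genes of the interferon response did not share the direction of Cxcl10. Of 19 tested, 3 were higher and 3 lower, shares close to those over all genes. Oasl2 measured 25.0, 22.1 and 24.7 CPM at 12 h and 71.5, 85.9 and 64.8 CPM in naive DRG (log2 change -1.63 ± 0.23, adjusted p = 0.00012). All 3 libraries at 12 h lay below the naive range. Ifit2 measured 159, 164 and 148 CPM at 12 h and 113, 68.5 and 84.7 CPM in naive DRG (log2 change 0.82 ± 0.17, adjusted p = 0.0022). The GTPase Gbp2 measured 86.7, 93.7 and 194 CPM at 12 h and 76.3, 63.1 and 71.4 CPM in naive DRG (log2 change 0.83 ± 0.27, adjusted p = 0.033), a call that was lost without 12 h replicate 3 or without naive replicate 2.

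Glucocorticoids, the adrenal stress hormones, act on glia through the receptor Nr3c1, which itself had a log2 change of 0.02. Of 15 glucocorticoid-responsive genes tested, 9 were higher (60%, against 17.3% over all genes) and none was lower, with a median log2 change of 1.58. Zbtb16 measured 112, 109.7 and 84.7 CPM at 12 h and 10.5, 13.6 and 1.75 CPM in naive DRG (log2 change 3.57 ± 0.59, adjusted p = 0.00046). Fkbp5, a co-chaperone of the receptor, measured 110.0, 109 and 47.2 CPM at 12 h and 21.4, 27.1 and 3.85 CPM in naive DRG (log2 change 2.35 ± 0.53, adjusted p = 0.0048). The kinase Sgk1 measured 198, 284 and 385 CPM at 12 h and 84.8, 94.7 and 20.9 CPM in naive DRG (log2 change 2.11 ± 0.46, adjusted p = 0.0034). Naive replicate 3 was the lowest of the 3 naive libraries in 7 of the 9 risen genes, and the naive libraries were far apart. The median of the list, relative to the naive mean, was 1.22, 1.35 and 1.70 at 12 h and 0.50, 0.42 and -0.78 in naive DRG on the log2 scale. Pdk4, which blocks pyruvate oxidation, measured 495, 447 and 292 CPM at 12 h and 111, 112 and 57.7 CPM in naive DRG (log2 change 2.14 ± 0.37, adjusted p = 0.00078). Klf9 measured 464, 451 and 678 CPM at 12 h and 235, 216 and 82.1 CPM in naive DRG (log2 change 1.58 ± 0.32, adjusted p = 0.0020). The 12 h libraries nevertheless lay above all naive libraries in each gene named here. Glucocorticoid levels follow the hour of the day and handling, and their part in these values was not tested, as neither is labelled.

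Metallothioneins bind zinc and are induced by zinc, glucocorticoids and oxidative stress. Mt2 (chr8:94172664-94173568) measured 305, 336 and 361 CPM at 12 h and 27.2, 39.0 and 16.5 CPM in naive DRG (log2 change 3.60 ± 0.37, adjusted p = 1.0e-05). Mt1 measured 118, 141 and 127 CPM at 12 h and 23.9, 36.9 and 24.4 CPM in naive DRG (log2 change 2.18 ± 0.31, adjusted p = 0.00014). The zinc importer Slc39a14 measured 188, 160.2 and 78.4 CPM at 12 h and 27.1, 41.7 and 18.1 CPM in naive DRG (log2 change 2.30 ± 0.33, adjusted p = 0.00014), whereas the zinc exporter Slc30a1 measured 42.1, 50.1 and 45.7 CPM at 12 h and 107, 96.2 and 142 CPM in naive DRG (log2 change -1.32 ± 0.16, adjusted p = 3.0e-05). In all, 4 of 6 tested members were higher and 1 was lower (66.7% and 16.7%, against 17.3% and 15.6% over all genes). With added naive libraries 1 member remained higher by the test, the Mt2 call was lost, and Mt1 turned to a log2 change of -1.38.

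The circadian clock is a loop of activators and repressors whose phase depends on the hour. Of 18 clock genes tested, 8 were higher and 4 lower (44.4% and 22.2%, against 17.3% and 15.6% over all genes). Nfil3, the repressor at D-box elements, measured 5.08, 17.2 and 22.1 CPM at 12 h and 0.790, 1.26 and 0.0553 CPM in naive DRG (log2 change 4.42 ± 0.72, adjusted p = 0.00046). Dbp, the activator at the same elements, measured 2.83, 1.78 and 5.03 CPM at 12 h and 29.1, 9.62 and 15.9 CPM in naive DRG (log2 change -2.50 ± 0.41, adjusted p = 0.00046). Neither pair of groups overlapped. Arntl, which encodes the activator Bmal1, measured 23.0, 21.7 and 18.2 CPM at 12 h and 3.40, 9.76 and 6.56 CPM in naive DRG (log2 change 1.67 ± 0.31, adjusted p = 0.0012). Its repressor Nr1d1 measured 143, 123 and 161 CPM at 12 h and 263, 194 and 230.2 CPM in naive DRG (log2 change -0.69 ± 0.14, adjusted p = 0.0028). Arntl was higher and Nr1d1 lower in every 12 h library than in any naive library. Per1 measured 211, 251 and 639.7 CPM at 12 h and 139, 116 and 58.4 CPM in naive DRG (log2 change 1.81 ± 0.38, adjusted p = 0.0027). Cry2 measured 175, 202 and 259 CPM at 12 h and 77.8, 58.6 and 82.8 CPM in naive DRG (log2 change 1.54 ± 0.19, adjusted p = 5.4e-05). Bhlhe41 measured 96.0, 158 and 214 CPM at 12 h and 68.2, 53.4 and 53.7 CPM in naive DRG (log2 change 1.41 ± 0.22, adjusted p = 0.00033). Since the hour of collection is not labelled, injury and hour cannot be told apart for this group.

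Growth arrest genes and p53 targets rose in 9 of 16 cases tested and fell in 1, with a median log2 change of 0.66. These shares were 56.25% and 6.25%, against 17.3% and 15.6% over all genes. The cyclin-dependent kinase inhibitor Cdkn1a measured 1175, 1053 and 1829 CPM at 12 h and 227, 342 and 232 CPM in naive DRG (log2 change 2.34 ± 0.22, adjusted p = 4.6e-06). Btg2, an antiproliferative regulator of deadenylation, measured 9.82, 20.3 and 36.4 CPM at 12 h and 2.30, 1.46 and 1.53 CPM in naive DRG (log2 change 3.65 ± 0.39, adjusted p = 1.4e-05). Ccng1, a p53 target, was the member that fell, at 109, 98.8 and 90.8 CPM at 12 h and 159, 160.1 and 161 CPM in naive DRG (log2 change -0.69 ± 0.11, adjusted p = 0.00044). With added naive libraries 5 members were called higher. Among 14 cell cycle genes tested, 1 rose and 2 fell (7.1% and 14.3%, against 17.3% and 15.6% over all genes). Cyclin Ccnd1 measured 190.3, 235 and 324 CPM at 12 h and 453, 466 and 536 CPM in naive DRG (log2 change -0.96 ± 0.19, adjusted p = 0.0022). Ccnd3 measured 41.2, 35.4 and 64.0 CPM at 12 h and 27.6, 26.3 and 25.4 CPM in naive DRG (log2 change 0.82 ± 0.20, adjusted p = 0.0067), with a turn to -0.07 for Ccnd3 with added naive libraries. The replication helicase Mcm4 measured 23.3, 19.4 and 17.0 CPM at 12 h and 30.5, 25.9 and 26.7 CPM in naive DRG (log2 change -0.47 ± 0.18, adjusted p = 0.063), a fall lost in 6 of the alternatives tried, added naive libraries among them, and Top2a had a log2 change of -0.17 that did not pass.

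The unfolded protein response raises chaperones of the endoplasmic reticulum, and the linked integrated stress response acts through Atf4. Of 24 members tested, 14 were higher and 1 lower (58.3% and 4.2%, against 17.3% and 15.6% over all genes). The median log2 change was 0.53. The main chaperone Hspa5 (BiP) measured 648, 1188 and 746 CPM at 12 h and 408, 510.0 and 262 CPM in naive DRG (log2 change 1.13 ± 0.25, adjusted p = 0.0037). Hsp90b1 measured 1253, 1344 and 1249 CPM at 12 h and 848, 942 and 912 CPM in naive DRG (log2 change 0.51 ± 0.10, adjusted p = 0.0023). Dnajb9 measured 123, 237 and 226 CPM at 12 h and 84.1, 100.1 and 77.0 CPM in naive DRG (log2 change 1.17 ± 0.22, adjusted p = 0.0014). All 3 chaperones were higher in every 12 h library than in any naive library. Sel1l, part of the degradation machinery, measured 499.6, 522 and 570.1 CPM at 12 h and 377, 372 and 339 CPM in naive DRG (log2 change 0.55 ± 0.11, adjusted p = 0.0017). Ppp1r15a, which restores translation after stress, measured 59.1, 98.2 and 81.6 CPM at 12 h and 33.0, 30.5 and 33.7 CPM in naive DRG (log2 change 1.30 ± 0.17, adjusted p = 9.2e-05). The apoptosis-linked factor Ddit3 had a log2 change of 0.01 and did not pass, and the lipoprotein receptor Vldlr was the member that fell (-0.61). With added naive libraries 5 members were called higher, and the Ppp1r15a call was lost.

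Of 21 heat shock proteins and co-chaperones tested, 5 were higher and 4 lower (23.8% and 19.0%, near the 17.3% and 15.6% over all genes), and 3 were higher and 2 lower with added naive libraries. Dnaja1, an Hsp70 co-chaperone, measured 203, 203 and 159.7 CPM at 12 h and 315, 377 and 299.7 CPM in naive DRG (log2 change -0.81 ± 0.13, adjusted p = 0.00040). Hspa1a, the inducible Hsp70, measured 11.1, 12.1 and 10.6 CPM at 12 h and 19.0, 40.7 and 14.8 CPM in naive DRG (log2 change -1.14 ± 0.29, adjusted p = 0.011). Hspa1a and Hspa1b are near-identical copies, and the study used only uniquely mapped reads, so reads that fit both equally were left out. Dnajb5 measured 11.5, 14.3 and 28.0 CPM at 12 h and 5.58, 3.73 and 8.90 CPM in naive DRG (log2 change 1.56 ± 0.35, adjusted p = 0.0049). Bag3 measured 92.8, 128 and 149.7 CPM at 12 h and 74.3, 90.2 and 65.3 CPM in naive DRG (log2 change 0.69 ± 0.17, adjusted p = 0.0092). The calls for Dnaja1 and Bag3 were lost with added naive libraries.

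Genes that feed and start translation moved up in part. Of 36 initiation factors tested, 11 were higher (30.6%, against 17.3% over all genes) and none was lower, with a median log2 change of 0.23. Eif1a, which helps the ribosome scan for the start codon, had the largest change, with 333, 377 and 336 CPM at 12 h and 93.3, 73.9 and 79.5 CPM in naive DRG (log2 change 2.08 ± 0.14, adjusted p = 2.7e-07). Its X-linked relative Eif1ax had a log2 change of 0.26 and did not pass. The study used only uniquely mapped reads, so reads that fit both copies equally were left out. Eif1 measured 284, 298 and 333 CPM at 12 h and 145, 158 and 160.4 CPM in naive DRG (log2 change 0.98 ± 0.13, adjusted p = 7.1e-05). Eif2s1 measured 104, 100.4 and 105 CPM at 12 h and 61.8, 59.5 and 70.1 CPM in naive DRG (log2 change 0.69 ± 0.12, adjusted p = 0.00080). The poly(A)-binding protein Pabpc1 measured 297, 259.9 and 297 CPM at 12 h and 198, 175 and 179 CPM in naive DRG (log2 change 0.63 ± 0.14, adjusted p = 0.0046). With added naive libraries 4 factors were called higher, and the Eif1 call was lost. Amino acid transport and synthesis genes rose in 6 of 14 cases (42.9%, against 17.3% over all genes), with none lower. The 6 were 5 transporters and the asparagine synthetase Asns (log2 change 0.85). Slc38a2 measured 774, 712 and 782 CPM at 12 h and 361, 366 and 287 CPM in naive DRG (log2 change 1.16 ± 0.12, adjusted p = 1.0e-05). Slc7a1 measured 44.9, 32.4 and 42.1 CPM at 12 h and 11.5, 10.6 and 16.2 CPM in naive DRG (log2 change 1.64 ± 0.23, adjusted p = 0.00012). Slc7a5 and its partner Slc3a2, which form a leucine importer, measured 165, 157 and 151 CPM and 341, 333 and 351 CPM at 12 h, against 74.6, 106 and 52.0 CPM and 200.0, 219 and 165 CPM in naive DRG. Their log2 changes were 1.03 ± 0.20 and 0.81 ± 0.12 (adjusted p = 0.0017 and 0.00025). With added naive libraries 3 members were called higher, and Slc3a2 was no longer among them.

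By contrast, 20 aminoacyl-tRNA synthetases split into 2 higher and 2 lower, and 54 cytosolic ribosomal proteins into 1 higher and 3 lower, shares below those over all genes. Dars fell, with 76.8, 85.0 and 105 CPM at 12 h and 165, 154 and 179 CPM in naive DRG (log2 change -0.90 ± 0.14, adjusted p = 0.00026). Eprs rose, with 199, 144 and 168 CPM at 12 h and 113, 119.7 and 120.3 CPM in naive DRG (log2 change 0.53 ± 0.13, adjusted p = 0.0069). Without 12 h replicate 3, 7 synthetases were called higher. Rpl4 measured 261, 263 and 246 CPM at 12 h and 209.5, 210.2 and 209 CPM in naive DRG (log2 change 0.29 ± 0.10, adjusted p = 0.049), a rise that 5 alternatives lost and that turned to -0.32 with added naive libraries, where 15 ribosomal proteins were called lower. Rpl15 measured 32.3, 27.2 and 24.9 CPM at 12 h and 41.3, 41.6 and 99.8 CPM in naive DRG (log2 change -1.11 ± 0.36, adjusted p = 0.032), which rested on naive replicate 3: without it the adjusted p was 0.24. Of 20 ribosome biogenesis genes, 4 were higher and 1 lower (20% and 5%, against 17.3% and 15.6% over all genes). Between 2 and 8 were higher when single libraries were left out, and none was higher with added naive libraries. The nucleolar GTPase Gnl3 measured 55.4, 32.7 and 28.8 CPM at 12 h and 17.8, 22.2 and 10.8 CPM in naive DRG (log2 change 1.20 ± 0.29, adjusted p = 0.0068). Of 31 proteasome subunits, 3 were higher (9.7%, below the 17.3% over all genes) and none lower. With added naive libraries 5 were lower and the risen Psmb7 (log2 change 0.40 ± 0.13, adjusted p = 0.036) turned to -0.25. Psmd11 measured 115, 100.3 and 116 CPM at 12 h and 66.3, 85.6 and 56.6 CPM in naive DRG (log2 change 0.67 ± 0.16, adjusted p = 0.0080). Psmd12 measured 85.9, 67.4 and 87.6 CPM at 12 h and 58.2, 50.5 and 59.2 CPM in naive DRG (log2 change 0.52 ± 0.14, adjusted p = 0.016).

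**Figure D3:**
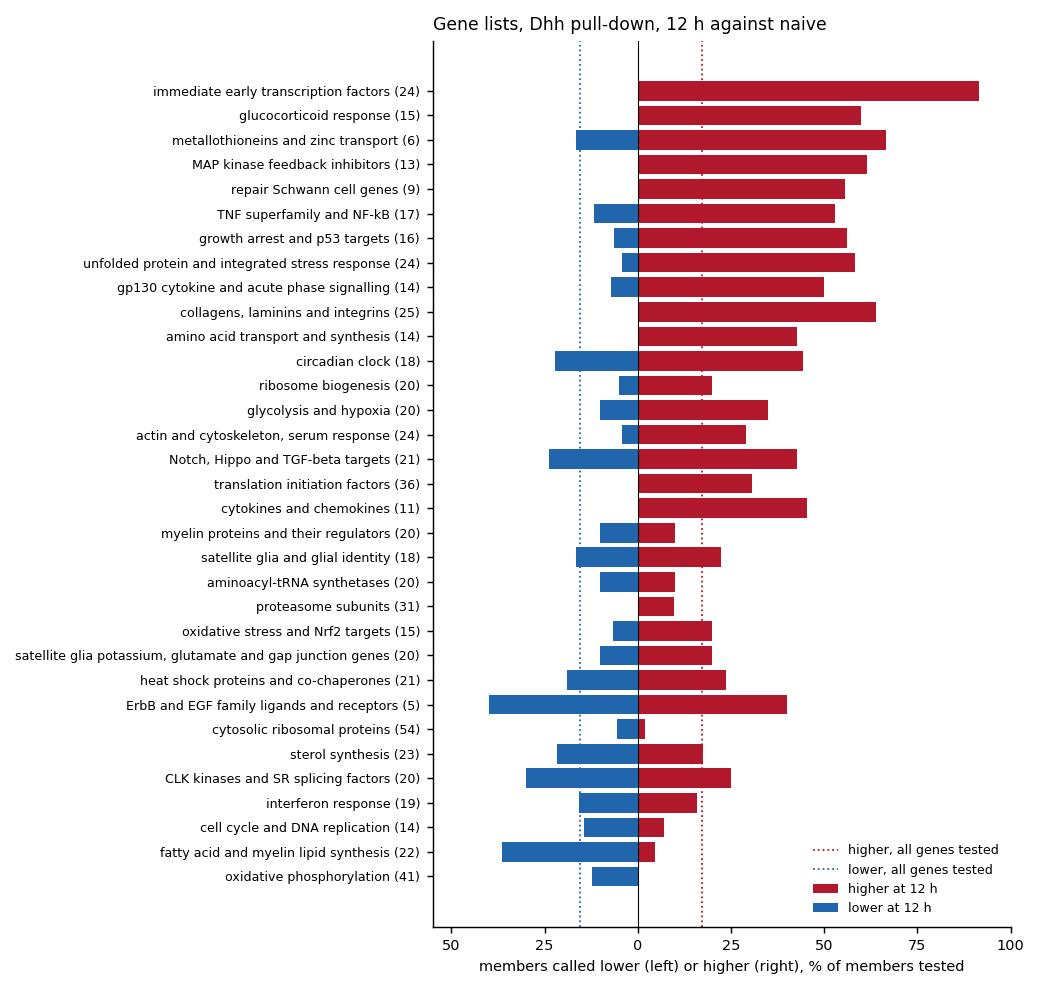
Share of tested members of each gene list called lower (left) or higher (right) at 12 h against naive, in % of members tested, with the number tested in parentheses and dotted lines at the shares over all genes tested (15.6% lower and 17.3% higher). Immediate early factors reach 91.7% higher with none lower, and fatty acid and myelin lipid synthesis genes reach 36.4% lower.

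Many basement membrane and matrix genes were higher. Of 25 collagens, laminins and integrins tested, 16 were higher (64%, against 17.3% over all genes) and none was lower. The median log2 change was 0.46, and 8 were called higher with added naive libraries. Lamc1 (chr1:153218922-153332786), the gamma chain of most laminins, measured 1854, 1413 and 1485 CPM at 12 h and 560.2, 649 and 610.4 CPM in naive DRG (log2 change 1.38 ± 0.13, adjusted p = 4.0e-06). The basement membrane collagens Col4a1 and Col4a2 measured 638, 494 and 663 CPM and 536, 360.5 and 489 CPM at 12 h, against 211, 259 and 208 CPM and 186, 268 and 229 CPM in naive DRG (log2 changes 1.40 ± 0.14 and 1.02 ± 0.17, adjusted p = 6.6e-06 and 0.00051). Their libraries did not overlap between groups. Tnc, the injury-induced matrix protein tenascin C, measured 71.0, 58.0 and 48.8 CPM at 12 h and 8.22, 17.9 and 12.0 CPM in naive DRG (log2 change 2.22 ± 0.24, adjusted p = 1.7e-05). The fibronectin receptor subunit Itga5 measured 13.7, 5.23 and 6.07 CPM at 12 h and 3.28, 2.26 and 3.08 CPM in naive DRG (log2 change 1.54 ± 0.40, adjusted p = 0.011). The fibrillar collagens Col1a1 (log2 change -0.16), Col1a2 (0.15) and Col3a1 (0.15), which fibroblasts make, did not pass the test. The 6 listed fibroblast markers summed to 653, 623 and 876 CPM at 12 h, against 579, 732 and 642 CPM in naive DRG, with none called. The part of fibroblast RNA in the matrix rises was not tested.

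Cytoskeletal and serum response genes rose in 7 of 24 cases and fell in 1 (29.2% and 4.2%, against 17.3% and 15.6% over all genes). The counts were 4 lower without 12 h replicate 3, and 4 higher and 3 lower with added naive libraries. The tubulin Tubb6 measured 54.0, 37.8 and 47.8 CPM at 12 h and 14.6, 13.6 and 12.7 CPM in naive DRG (log2 change 1.77 ± 0.23, adjusted p = 7.7e-05). Tagln2 measured 127, 104 and 109.7 CPM at 12 h and 62.8, 48.9 and 50.8 CPM in naive DRG (log2 change 1.07 ± 0.15, adjusted p = 0.00012). The intermediate filament Nes measured 189, 220.3 and 213 CPM at 12 h and 95.7, 142 and 139.7 CPM in naive DRG (log2 change 0.72 ± 0.15, adjusted p = 0.0025). Targets and parts of the Notch, Hippo and TGF-beta pathways moved both ways, 9 higher and 5 lower of 21 tested. These shares were 42.9% and 23.8%, against 17.3% and 15.6% over all genes. The Hippo effector Wwtr1 (TAZ) measured 619, 787 and 805 CPM at 12 h and 341, 375 and 335 CPM in naive DRG (log2 change 1.07 ± 0.12, adjusted p = 2.7e-05). Smad3 measured 50.9, 62.7 and 54.4 CPM at 12 h and 26.1, 25.8 and 21.8 CPM in naive DRG (log2 change 1.19 ± 0.16, adjusted p = 7.4e-05). For both genes the lowest 12 h library lay above the highest naive library. The Notch target Hey2 measured 211, 223 and 182 CPM at 12 h and 403, 501 and 496 CPM in naive DRG (log2 change -1.19 ± 0.14, adjusted p = 2.6e-05). Id4, an inhibitor of differentiation factors, measured 64.2, 81.2 and 98.5 CPM at 12 h and 129, 112 and 268 CPM in naive DRG (log2 change -1.06 ± 0.28, adjusted p = 0.012). Hes5, another Notch target, was low at 2.51, 0.438 and 0.423 CPM at 12 h and 2.56, 3.15 and 3.04 CPM in naive DRG (log2 change -1.37 ± 0.55, adjusted p = 0.082), with 12 h replicate 1 close to the naive level, and its call was lost when any of 5 libraries was left out. The pathway split was 3 to 7 lower when single libraries were left out.

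Of 20 genes of the repair Schwann cell programme, 10 were listed in the table. Of these, 9 passed the filter on low values and could be tested. Among the 9, 5 rose (55.6%, against 17.3% over all genes) and none fell. Beside Jun and Tnc, the factor Runx2 measured 112, 103 and 106 CPM at 12 h and 42.2, 37.9 and 47.8 CPM in naive DRG (log2 change 1.33 ± 0.14, adjusted p = 1.6e-05). The filament protein Gfap, a sign of reactive glia, measured 22.5, 17.0 and 6.27 CPM at 12 h and 3.42, 5.03 and 2.89 CPM in naive DRG (log2 change 2.01 ± 0.39, adjusted p = 0.0015). Ngfr (log2 change 0.33), Gap43 (0.32) and Sox2 (0.13) did not pass.

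Few genes of the myelinating state were called at this time. Of 20 myelin proteins and regulators tested, 2 were higher and 2 lower (1 and 1 with added naive libraries), with a median log2 change of 0.11. These shares, 10% each, were below the 17.3% higher and 15.6% lower over all genes. Mbp, a protein of compact myelin, measured 2811, 3338 and 4556 CPM at 12 h and 2657, 2998 and 3086 CPM in naive DRG (log2 change 0.29 ± 0.17, adjusted p = 0.21). Replicate 1 at 12 h lay inside the naive range and replicates 2 and 3 above it, and with added naive libraries Mbp was at -0.54. Pmp22 measured 14083, 15712 and 20251 CPM at 12 h and 11182, 14248 and 13036 CPM in naive DRG (log2 change 0.38 ± 0.14, adjusted p = 0.067), a call that was lost without 12 h replicate 3, naive replicate 1 or naive replicate 3, and with added naive libraries. Egr2, the master regulator of myelination and also an immediate early gene, measured 279, 359 and 529 CPM at 12 h and 153, 176 and 146 CPM in naive DRG (log2 change 1.30 ± 0.19, adjusted p = 0.00019). In Mbp, Pmp22 and Egr2 replicate 3 was the highest library at 12 h. Ugt8a, which makes the myelin lipid galactocerebroside, measured 253, 370.4 and 519.9 CPM at 12 h and 532, 613 and 748 CPM in naive DRG (log2 change -0.73 ± 0.21, adjusted p = 0.018), a call lost with added naive libraries. Ncmap, a myelin membrane protein counted among the markers, measured 355, 366 and 410.1 CPM at 12 h and 240.4, 235 and 193 CPM in naive DRG (log2 change 0.76 ± 0.12, adjusted p = 0.00038), likewise lost with added naive libraries. Fa2h, which hydroxylates myelin fatty acids, measured 192, 172 and 204 CPM at 12 h and 196, 314 and 231 CPM in naive DRG (log2 change -0.38 ± 0.16, adjusted p = 0.097). This call was lost in 8 of the alternatives, added naive libraries among them.

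Of 18 satellite glial identity genes tested, 4 were higher and 3 lower (22.2% and 16.7%, near the 17.3% and 15.6% over all genes), and 2 were higher with added naive libraries. Fabp7 (chr10:57784881-57788450), a fatty acid binding protein of satellite glia, measured 877, 1267 and 1719.8 CPM at 12 h and 2078, 4677 and 4042 CPM in naive DRG (log2 change -1.48 ± 0.26, adjusted p = 0.00087). The 3 libraries at 12 h lay below the lowest naive library. Foxd3, a neural crest factor, measured 90.0, 79.2 and 76.7 CPM at 12 h and 27.7, 33.9 and 29.8 CPM in naive DRG (log2 change 1.43 ± 0.16, adjusted p = 1.8e-05), but was at -0.29 with added naive libraries. The adhesion molecules Cadm2 and Cdh19 measured 159.7, 166 and 193 CPM and 977, 814 and 714 CPM at 12 h, against 116, 109 and 102 CPM and 696, 498 and 511 CPM in naive DRG (log2 changes 0.67 ± 0.12 and 0.56 ± 0.14, adjusted p = 0.00088 and 0.010). Sox10, which every Schwann and satellite cell needs, measured 470.4, 279 and 183 CPM at 12 h and 512, 611 and 459.6 CPM in naive DRG (log2 change -0.76 ± 0.24, adjusted p = 0.030). Its replicate 1 at 12 h lay inside the naive range, and the call was lost without naive replicate 2. The 12 markers of satellite glia and immature Schwann cells summed to 9401, 9836 and 11039 CPM at 12 h, against 10481, 12816 and 12809 CPM in naive DRG.

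Satellite glia buffer potassium and glutamate around neuronal cell bodies. Of 20 genes for this function tested, 4 were higher and 2 lower (20% and 10%, against 17.3% and 15.6% over all genes). The inward rectifier Kcnj10 (log2 change 0.13), the gap junction gene Gja1 (-0.30) and glutamine synthetase Glul (0.32) did not pass. Kcna1 (chr6:126640397-126646384), a voltage-gated potassium channel that in nerve is known from the axon beside the node, measured 4543, 4104 and 4258 CPM at 12 h and 1219, 1705 and 1298 CPM in naive DRG (log2 change 1.61 ± 0.13, adjusted p = 1.1e-06). All 3 libraries at 12 h were more than 2 times above every naive library. In the Isl1 pull-down Kcna1 measured 671, 662 and 668 CPM at 12 h and 690.3, 706 and 633 CPM in naive DRG, levels far below those of the Dhh libraries and with a log2 change of -0.01 ± 0.11 (adjusted p = 1.00). The changes of the 2 lines differed by 1.61 ± 0.16, adjusted p = 1.0e-06. The leak channel Kcnk1 measured 243, 252 and 207 CPM at 12 h and 144, 139 and 88.4 CPM in naive DRG (log2 change 0.92 ± 0.19, adjusted p = 0.0023). The purinergic receptor P2rx7 measured 90.6, 61.7 and 50.3 CPM at 12 h and 129, 135 and 92.9 CPM in naive DRG (log2 change -0.81 ± 0.20, adjusted p = 0.0076).

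Lipid synthesis genes moved mostly down where they moved. Of 22 genes of fatty acid and myelin lipid synthesis, 8 were lower and 1 higher, with a median log2 change of -0.18. These shares were 36.4% and 4.5%, against 15.6% lower and 17.3% higher over all genes. Between 5 and 8 genes of the list were lower when single libraries were left out. Scd2, the desaturase of myelinating cells, measured 5896, 5569 and 6029.5 CPM at 12 h and 8175, 8466 and 10190.4 CPM in naive DRG (log2 change -0.62 ± 0.10, adjusted p = 0.00056). Acss2, which makes acetyl-CoA from acetate, measured 85.1, 80.2 and 90.3 CPM at 12 h and 147, 133 and 151 CPM in naive DRG (log2 change -0.76 ± 0.18, adjusted p = 0.0062). Aspa, which frees acetate from N-acetylaspartate, measured 102, 147 and 175 CPM at 12 h and 291, 330.2 and 330.1 CPM in naive DRG (log2 change -1.17 ± 0.18, adjusted p = 0.00022). All 3 were lower in every 12 h library than in any naive library. Acot1, a thioesterase, was the gene that rose, with 106, 116 and 95.9 CPM at 12 h and 46.4, 55.6 and 57.1 CPM in naive DRG (log2 change 1.00 ± 0.15, adjusted p = 0.00025). In sterol synthesis, 4 of 23 tested were higher and 5 lower. These shares, 17.4% and 21.7%, were near those over all genes. Hmgcs1, an early enzyme of the pathway, measured 924, 968 and 912 CPM at 12 h and 1584, 1562 and 2332 CPM in naive DRG (log2 change -0.97 ± 0.16, adjusted p = 0.00041). Mvk measured 10.2, 8.24 and 7.94 CPM at 12 h and 30.1, 21.6 and 39.9 CPM in naive DRG (log2 change -1.80 ± 0.22, adjusted p = 4.0e-05). The sterol sensor Insig1 rose, with 435, 548 and 704 CPM at 12 h and 229, 189 and 404 CPM in naive DRG (log2 change 1.04 ± 0.23, adjusted p = 0.0046). The number of sterol genes that fell was 8 without 12 h replicate 3 and 3 without naive replicate 3, and the number that rose was 2 without naive replicate 2.

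Of 41 subunits of oxidative phosphorylation, none was higher and 5 were lower, with a median log2 change of -0.19, a smaller share than the 15.6% of all genes. One of the 5, the complex I subunit Ndufs1, measured 36.8, 45.6 and 42.4 CPM at 12 h and 53.6, 55.6 and 50.9 CPM in naive DRG (log2 change -0.36 ± 0.13, adjusted p = 0.063). The count was 1 or 2 without 12 h replicate 1 or 3 or without any naive library, 0 in the fit of the 6 libraries alone and 22 with added naive libraries. In glycolysis and the hypoxia response, 7 of 20 were higher and 2 lower (35% and 10%, against 17.3% and 15.6% over all genes). Without naive replicate 1 or 2, 4 were higher, and 3 with added naive libraries. Ldha measured 237, 215 and 203 CPM at 12 h and 135, 119 and 123 CPM in naive DRG (log2 change 0.79 ± 0.11, adjusted p = 0.00015). Egln3, an oxygen sensor, measured 6.30, 7.34 and 7.59 CPM at 12 h and 14.1, 19.8 and 17.7 CPM in naive DRG (log2 change -1.28 ± 0.21, adjusted p = 0.00047). Of 15 targets of the oxidative stress factor Nrf2, 3 rose and 1 fell (20% and 6.7%, against 17.3% and 15.6% over all genes). With added naive libraries 1 rose. Txnrd1 measured 109, 125 and 99.9 CPM at 12 h and 41.7, 50.0 and 57.0 CPM in naive DRG (log2 change 1.16 ± 0.15, adjusted p = 6.2e-05). Prdx1 measured 92.6, 108 and 94.4 CPM at 12 h and 149.8, 164 and 171 CPM in naive DRG (log2 change -0.72 ± 0.13, adjusted p = 0.00091).

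The largest fall was that of Zfp663 (chr2:165351297-165368729), a zinc finger gene, with 0.644, 2.75 and 3.23 CPM at 12 h and 22.8, 22.0 and 27.6 CPM in naive DRG (log2 change -3.45 ± 0.42, adjusted p = 4.1e-05). The zinc finger gene Zfp882 measured 10.3, 8.95 and 4.98 CPM at 12 h and 32.7, 41.2 and 31.6 CPM in naive DRG (log2 change -2.12 ± 0.23, adjusted p = 1.6e-05). Hykk, the hydroxylysine kinase, measured 2.53, 4.77 and 4.01 CPM at 12 h and 25.5, 13.2 and 18.3 CPM in naive DRG (log2 change -2.33 ± 0.29, adjusted p = 5.3e-05). At 12 h the lowest library was replicate 1 for Zfp663 and Hykk and replicate 3 for Zfp882. Sh3rf3, a scaffold of JNK signalling, measured 6.10, 4.64 and 5.27 CPM at 12 h and 23.1, 26.3 and 26.3 CPM in naive DRG (log2 change -2.24 ± 0.24, adjusted p = 1.5e-05). Rassf10 measured 8.97, 7.51 and 3.86 CPM at 12 h and 22.9, 26.0 and 39.5 CPM in naive DRG (log2 change -2.12 ± 0.28, adjusted p = 8.8e-05). The groups did not overlap in any of these, as the rule for the 15 largest falls required. Other large falls were in genes at a few CPM: Kctd14 measured 0.437, 0.146 and 0.970 CPM at 12 h and 4.57, 2.97 and 3.80 CPM in naive DRG (log2 change -2.87 ± 0.50, adjusted p = 0.00075). Lyplal1, a lysophospholipase-like enzyme, measured 0.414, 0.365 and 0.597 CPM at 12 h and 1.84, 2.74 and 4.76 CPM in naive DRG (log2 change -2.76 ± 0.44, adjusted p = 0.00034). Lfng, which glycosylates Notch receptors, measured 2.46, 1.92 and 1.19 CPM at 12 h and 10.3, 12.0 and 3.83 CPM in naive DRG (log2 change -2.22 ± 0.41, adjusted p = 0.0011). The remaining genes among the 15 largest falls were Hpdl, Fam161b, Dhrs2, Mettl8, Sfxn4 and Rab29, between -2.59 and -2.10 on the log2 scale.

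Splicing regulators moved in both directions, with 5 higher and 6 lower of 20 CLK kinases, SR proteins and related genes. These shares were 25% and 30%, against 17.3% and 15.6% over all genes. Without 12 h replicate 3, 9 were higher. Clk4 measured 97.1, 128 and 140.1 CPM at 12 h and 26.3, 19.8 and 26.5 CPM in naive DRG (log2 change 2.33 ± 0.18, adjusted p = 1.1e-06). Clk1 measured 63.9, 82.1 and 87.0 CPM at 12 h and 39.7, 25.3 and 24.4 CPM in naive DRG (log2 change 1.38 ± 0.20, adjusted p = 0.00016). Both kinases phosphorylate SR proteins. Tra2a, a splicing activator, measured 24.0, 36.9 and 21.0 CPM at 12 h and 90.9, 126 and 77.9 CPM in naive DRG (log2 change -1.85 ± 0.21, adjusted p = 2.9e-05). Srsf1 measured 104, 92.2 and 61.3 CPM at 12 h and 188, 189.8 and 179 CPM in naive DRG (log2 change -1.11 ± 0.16, adjusted p = 0.00014). Among 6 nuclear long non-coding RNAs, which are not translated, Neat1 measured 20.6, 32.0 and 16.5 CPM at 12 h and 48.3, 36.2 and 48.5 CPM in naive DRG (log2 change -0.95 ± 0.25, adjusted p = 0.012). The others, Malat1 among them (-0.14), did not pass.

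Markers of other cells were read in the same libraries. Of the 18 sensory neuron markers, 11 were higher at 12 h (61.1%, against 17.3% over all genes) and none was lower. Their median log2 change was 0.46, and their sums, given above, did not overlap between groups. Prph measured 61.2, 63.1 and 43.4 CPM at 12 h and 28.5, 37.9 and 37.6 CPM in naive DRG (log2 change 0.69 ± 0.20, adjusted p = 0.022). Snap25 measured 305, 323 and 404 CPM at 12 h and 251, 257 and 252 CPM in naive DRG (log2 change 0.44 ± 0.13, adjusted p = 0.019). Stmn2 measured 101, 94.7 and 98.2 CPM at 12 h and 70.3, 80.3 and 61.9 CPM in naive DRG (log2 change 0.47 ± 0.14, adjusted p = 0.021). The count was 5 without naive replicate 1, 6 without naive replicate 3 and 1 with added naive libraries, where Prph turned to -0.999 and the calls of Snap25 and Stmn2 were lost. The part of neuronal RNA in the rises described here was not tested. The medians of the immediate early factors (3.02) and of these markers (0.46) do not measure it.

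Of 16 macrophage markers 3 were listed in the table and 13 were not. Of the 3, 2 were higher (66.7%, against 17.3% over all genes) and 1 was not called. The 3 summed to 35.7, 41.0 and 29.4 CPM at 12 h, against 57.8, 31.1 and 11.4 CPM in naive DRG. Most of each sum came from the marker that was not called. The 2 called markers stood at a few CPM at 12 h, and Cd68 was very low in naive DRG. Cd68 measured 5.27, 2.36 and 2.46 CPM at 12 h and 0.335, 0.114 and 0.313 CPM in naive DRG (log2 change 3.71 ± 0.78, adjusted p = 0.0028). Cd14 measured 1.98, 3.99 and 2.69 CPM at 12 h and 1.20, 0.343 and 0.737 CPM in naive DRG (log2 change 1.92 ± 0.47, adjusted p = 0.0077, lost with added naive libraries). Of 10 endothelial markers 4 were listed and tested. Of these, Kdr measured 5.04, 8.44 and 2.54 CPM at 12 h and 13.0, 10.8 and 19.0 CPM in naive DRG (log2 change -1.42 ± 0.35, adjusted p = 0.0083). Pecam1 measured 5.57, 9.29 and 5.32 CPM at 12 h and 3.16, 4.96 and 3.41 CPM in naive DRG (log2 change 0.81 ± 0.32, adjusted p = 0.076), a rise that 4 alternatives lost and that turned to -0.51 with added naive libraries. None of the tested markers of mural cells (5), neutrophils (2) or mast and T cells (1) was called, and the mural markers summed to 125, 107 and 141 CPM at 12 h, against 126, 106 and 119.8 CPM in naive DRG.

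Set against 4 h after injury (changes are the 12 h level over the 4 h level), 12 h differed in 3737 genes, 34.0% of those tested, of which 1945 were higher at 12 h (17.7%) and 1792 lower (16.3%). The comparison shares the 12 h libraries with the one against naive DRG, so the 2 are not independent. The immediate early factors were not simply higher: 13 of 24 were higher at 12 h than at 4 h and 6 lower. In the order naive, 4 h, 12 h and 24 h, Egr1 measured 45.1, 43.5 and 47.8, then 3743, 3034 and 3696, then 118, 850.3 and 1945, and then 54.7 and 94.1 CPM. It was lower at 12 h than at 4 h (log2 change -1.85 ± 0.57, adjusted p = 0.025), as were Fos (-1.40 ± 0.37, adjusted p = 0.011) and Cyr61 (-2.41 ± 0.46, adjusted p = 0.0013). Myc by contrast stood at 7.96, 5.93 and 7.89 CPM at 4 h, within the naive range, and was higher at 12 h (log2 change 3.66 ± 0.30, adjusted p = 1.8e-06). Maff (3.71 ± 0.43, adjusted p = 2.7e-05), Gadd45b (3.52 ± 0.39, adjusted p = 2.2e-05) and Tnfrsf12a (5.29 ± 0.33, adjusted p = 1.8e-07) were likewise higher at 12 h than at 4 h.

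The 5 largest rises over 4 h were those of Slc10a6, Zbtb16, Tnfrsf12a, Plin4 and Fam105a. Of the 15 glucocorticoid-responsive genes, 12 were higher at 12 h than at 4 h (80%, against 17.7% over all genes) and none was lower. The bile acid and steroid sulfate transporter gene Slc10a6 measured 23.0, 27.6 and 31.8 CPM at 12 h and 0.0923, 0.903 and 0.313 CPM at 4 h (log2 change 5.94 ± 0.98, adjusted p = 0.00048). Zbtb16 measured 112, 109.7 and 84.7 CPM at 12 h and 2.42, 2.08 and 0.883 CPM at 4 h (log2 change 5.84 ± 0.66, adjusted p = 2.6e-05). In both genes every 12 h library lay above every 4 h library, as the selection required. Plin4, a lipid droplet protein, measured 36.1, 18.9 and 1.79 CPM at 12 h and 0.508, 0.922 and 0.405 CPM at 4 h (log2 change 4.95 ± 0.87, adjusted p = 0.00071). Fam105a measured 38.0, 29.6 and 13.7 CPM at 12 h and 0.623, 1.14 and 1.18 CPM at 4 h (log2 change 4.78 ± 0.57, adjusted p = 3.4e-05). The naive libraries of Slc10a6 were split, at 6.99, 8.32 and 0.203 CPM, so that naive replicate 3 lay at the 4 h level. The largest falls against 4 h were Zfp663 (-3.11 ± 0.41, adjusted p = 8.6e-05), Lyplal1 (-2.84 ± 0.44, adjusted p = 0.00028), Kctd14 (-2.79 ± 0.50, adjusted p = 0.00083), Dhrs2 (-2.72 ± 0.38, adjusted p = 0.00014) and Fam161b (-2.42 ± 0.51, adjusted p = 0.0026).

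**Figure D4:**
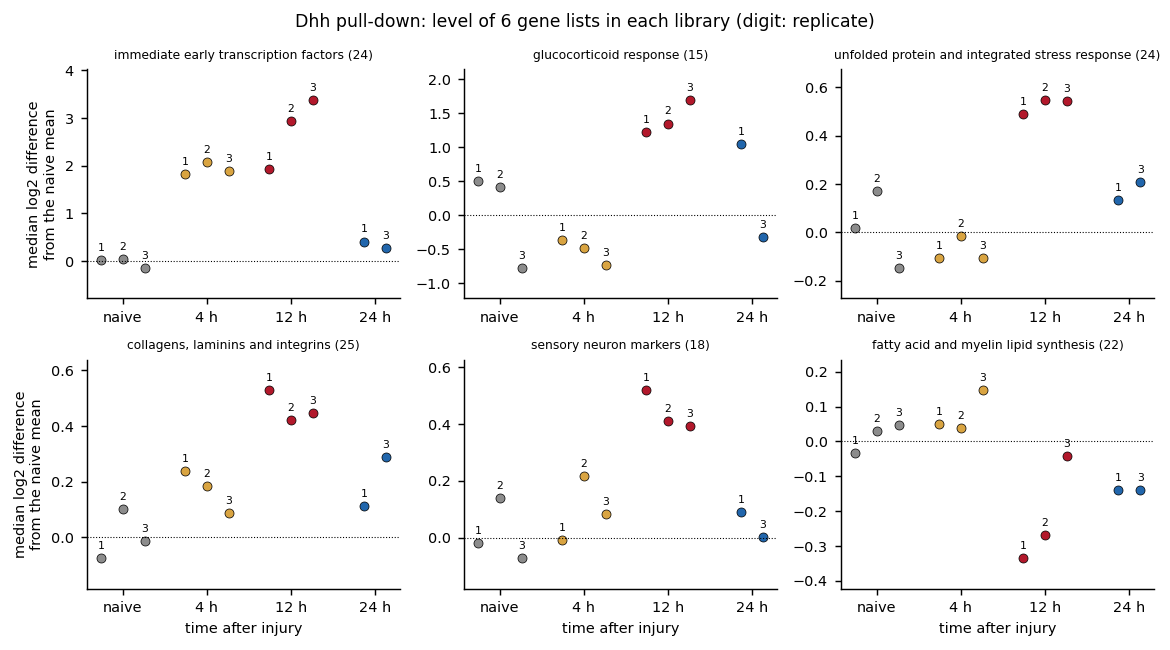
Level of 6 gene lists in each Dhh pull-down library by time after injury, given as the median over members of the log2 difference from the naive mean, with the replicate number above each point. Immediate early factors stand near 2 at 4 h and between 1.94 and 3.39 at 12 h, while the glucocorticoid list spreads from -0.78 to 0.50 among naive libraries and the stress response and matrix lists are highest at 12 h.

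At 24 h most immediate early factors tested were lower than at 12 h. Against 12 h, 24 h differed in 3044 genes, 27.7% of those tested, of which 1374 were higher at 24 h (12.5%) and 1670 lower (15.2%). This comparison too shares the 12 h libraries, its changes are the 24 h level over the 12 h level, and the 24 h group has only 2 libraries. Without 24 h replicate 3 the count was 1499 genes. Of the 24 immediate early factors 21 were lower at 24 h and none was higher, and 13 of the 25 matrix genes were lower with none higher. Fosb measured 0.624 and 0.460 CPM at 24 h and 18.5, 61.4 and 49.7 CPM at 12 h (log2 change -6.31 ± 0.62, adjusted p = 1.9e-05). Tnfrsf12a measured 1.29 and 1.07 CPM at 24 h and 52.5, 46.9 and 42.2 CPM at 12 h (log2 change -5.32 ± 0.40, adjusted p = 1.2e-06), at about the naive level. Cxcl10 (-4.63 ± 0.51, adjusted p = 4.7e-05), Dusp1 (-4.16 ± 0.52, adjusted p = 0.00012) and Tmem88 (-4.38 ± 0.91, adjusted p = 0.0037), an inhibitor of Wnt signalling, completed the largest falls. Tmem88 measured 0.208 and 0.504 CPM at 24 h and 3.77, 10.4 and 8.18 CPM at 12 h.

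Some genes rose further. Serpina3n was higher again at 24 h, with 3658 and 1299 CPM at 24 h and 1544, 989 and 842 CPM at 12 h (log2 change 1.14 ± 0.31, adjusted p = 0.018), and Gfap measured 39.1 and 30.6 CPM at 24 h and 22.5, 17.0 and 6.27 CPM at 12 h (log2 change 1.19 ± 0.40, adjusted p = 0.049). Of the 14 gp130 pathway genes 4 were higher and 1 was lower at 24 h (28.6% and 7.1%, against 12.5% and 15.2% over all genes). Of the 12 myelinating Schwann cell markers 7 were lower at 24 h and 2 higher (58.3% and 16.7%, against 15.2% and 12.5% over all genes). Pmp22 measured 10849 and 9973 CPM at 24 h and 14083, 15712 and 20251 CPM at 12 h (log2 change -0.68 ± 0.16, adjusted p = 0.0095). The largest rises at 24 h included Kctd14, Lyplal1 and Ethe1, which were also lower at 12 h than in naive DRG. For Ethe1 the log2 change at 12 h over naive was -1.84 ± 0.38, adjusted p = 0.0025. Both comparisons share the 12 h libraries, so a low 12 h level enters both and they are not independent. Kctd14 measured 6.24 and 9.57 CPM at 24 h and 0.437, 0.146 and 0.970 CPM at 12 h (log2 change 3.93 ± 0.53, adjusted p = 0.00020). Lyplal1 measured 2.60 and 3.44 CPM at 24 h and 0.414, 0.365 and 0.597 CPM at 12 h (log2 change 2.71 ± 0.46, adjusted p = 0.0011). Ethe1, a mitochondrial sulfur dioxygenase, measured 10.8 and 6.63 CPM at 24 h and 1.91, 1.41 and 0.697 CPM at 12 h (log2 change 2.69 ± 0.41, adjusted p = 0.00042). Slc16a13 (2.59 ± 0.47, adjusted p = 0.0016) and Pfn4 (2.48 ± 0.61, adjusted p = 0.010) completed the list.

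Whether the 12 h change of the glial pull-down differs from that of the neuronal pull-down was tested with an interaction term, the Dhh change minus the Isl1 change, over 9940 genes shared by the Dhh and Isl1 tables. The change differed in 2568 genes, 25.8% of those tested, with a larger value in Dhh for 1282 (12.9%) and in Isl1 for 1286 (12.9%). That even split depended on the scaling, since with DESeq2 size factors 1532 genes had the larger value in Dhh and 992 in Isl1 (60.7% in Dhh, against 49.9%). Of 18 immediate early factors in this test, 16 had a larger value in Dhh and none in Isl1. Tnfrsf12a measured 52.5, 46.9 and 42.2 CPM in Dhh at 12 h and 1.15, 1.49 and 1.36 CPM in Dhh naive DRG, and 7.29, 6.79 and 10.9 CPM in Isl1 at 12 h and 6.15, 6.99 and 4.77 CPM in Isl1 naive DRG (log2 difference of the changes 4.64 ± 0.41, adjusted p = 2.3e-07). The neuronal change of this gene was 0.50 ± 0.28, adjusted p = 0.89. Arc measured 2.38, 2.52 and 2.15 CPM in Isl1 at 12 h and 3.69, 4.40 and 4.30 CPM in Isl1 naive DRG, and its changes differed by 4.70 ± 0.40, adjusted p = 1.0e-07. Gpr3 measured 5.71, 5.68 and 4.34 CPM in Isl1 at 12 h and 4.66, 4.52 and 4.51 CPM in Isl1 naive DRG, all above the naive level in Dhh (log2 difference 5.30 ± 0.69, adjusted p = 2.6e-05). Nfil3 (4.03 ± 0.72, adjusted p = 0.00051) and Gadd45b (4.03 ± 0.44, adjusted p = 2.3e-06) followed.

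Other genes rose in both lines. Atf3 measured 70.1, 82.5 and 43.6 CPM in Isl1 at 12 h and 12.0, 11.7 and 11.9 CPM in Isl1 naive DRG (log2 change in Isl1 2.47 ± 0.31, adjusted p = 0.00017). Its changes differed by 1.01 ± 0.42 on the log2 scale (adjusted p = 0.095), just past the threshold. Socs3 rose in both lines, with 16.2, 24.4 and 20.5 CPM in Isl1 at 12 h and 4.76, 4.50 and 3.32 CPM in Isl1 naive DRG (log2 change in Isl1 2.30 ± 0.27, adjusted p = 0.00016). Its rise was larger in Dhh (log2 difference 1.49 ± 0.37, adjusted p = 0.0070). For Mt2 the changes in Dhh and Isl1 differed by 0.59 ± 0.57, adjusted p = 0.50, and the Isl1 libraries measured 20.7, 20.6 and 49.1 CPM at 12 h and 2.95, 4.24 and 4.15 CPM in naive DRG (log2 change 3.00 ± 0.44, adjusted p = 0.0010). The Mt2 difference did not pass the test, which does not show that the responses were equal. Mt2 was highest in Isl1 12 h replicate 3, the Isl1 library with the highest sum of myelinating Schwann cell markers (1244 CPM). The part of glial RNA in the Isl1 rises of Atf3, Socs3 and Mt2 was not tested.

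In the other direction, Lyplal1 measured 12.5, 12.2 and 16.0 CPM in Isl1 at 12 h and 17.7, 15.3 and 14.1 CPM in Isl1 naive DRG (log2 difference of the changes -2.58 ± 0.41, adjusted p = 0.00019). Dbp measured 3.67, 3.29 and 3.41 CPM in Isl1 at 12 h and 3.65, 4.79 and 4.41 CPM in Isl1 naive DRG (-2.21 ± 0.47, adjusted p = 0.0022). Mettl8 measured 11.4, 10.1 and 13.4 CPM in Isl1 at 12 h and 12.8, 12.5 and 13.1 CPM in Isl1 naive DRG (-2.07 ± 0.35, adjusted p = 0.00031). All 3 fell in Dhh. Trim7, tested only in this joint fit, measured 1.33, 0.657 and 0.498 CPM in Dhh at 12 h and 6.56, 3.66 and 1.55 CPM in Dhh naive DRG (log2 difference -2.21 ± 0.58, adjusted p = 0.010). Prss35 stood apart in that its Dhh level was flat, 416, 334 and 477 CPM at 12 h and 424, 405 and 421 CPM in naive DRG, while the Isl1 libraries measured 8.04, 1.75 and 11.4 CPM at 12 h and 1.49, 1.32 and 2.27 CPM in naive DRG (log2 difference -2.10 ± 0.53, adjusted p = 0.0079). In Isl1 at 12 h, replicates 1 and 3 lay above every Isl1 naive library and replicate 2 within their range. In Isl1 12 h replicate 3 the summed level of the myelinating Schwann cell markers was 1244 CPM, against 844 and 846 CPM in the other 2 libraries at 12 h and 826 to 853 CPM in Isl1 naive DRG, and the part of glial RNA in the Prss35 difference was not tested. The 18 sensory neuron markers also differed, with a larger change in Dhh for 11 (61.1%, against 12.9% over all genes). None had a larger change in Isl1, and the median was 0.43.

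**Figure D5:**
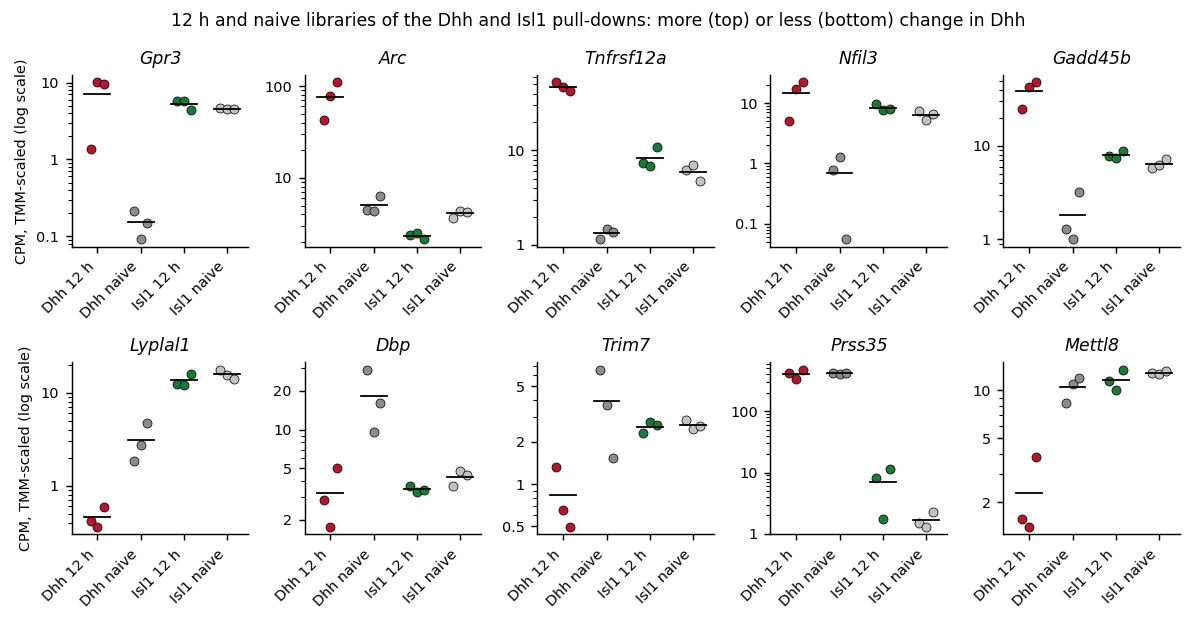
TMM-scaled CPM (log axis) in the 12 h and naive libraries of the Dhh and Isl1 pull-downs for the 5 genes with the largest excess of the Dhh change (top) and of the Isl1 change (bottom), where points are libraries and lines are means. Tnfrsf12a lies between 42.2 and 52.5 CPM in Dhh at 12 h and at most 10.9 CPM in every other library, and Prss35 lies between 334 and 477 CPM in the Dhh libraries.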

How the data were processed

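Ribosome-bound RNA of the 6 Dhh pull-down libraries was analysed with the Dhh 4 h and 24 h libraries and the Isl1 12 h and naive libraries. The authors used STAR (mm10) for alignment and HTSeq with RefSeq genes for counting. The deposited tables hold raw counts, which were tested, and the authors' normalized signal (edgeR pseudo-counts), whose library scaling served as an alternative only. The authors' columns of fold changes and p-values were not used. Per the submitters' processing notes, CASAVA 1.8.2 and edgeR were used, and mm9 appears beside mm10. The strand setting of the counting was not given in these sources. Among the Dhh symbols, 17 stood as dates, of which 16 were restored and 1 was dropped, and 65 genes had no length.

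Genes with a mean FPKM over 1 (lengths and coordinates from GENCODE M21, GRCm38/mm10) were fitted in R 4.3.3 with edgeR 4.0.16 (TMM, quasi-likelihood test, all Dhh libraries in 1 model, Benjamini-Hochberg adjustment, threshold 0.1). The standard error is the log2 change divided by the root of F. The Isl1 comparison was a joint fit over genes in both tables. DESeq2 1.42.0, a likelihood ratio test, other scalings and filters, a replicate block, left-out libraries and added naive libraries were the alternatives. The scripts were tested on simulated data.

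The members, the gene lists and these tests were chosen with earlier results of these data known. Genes were named by a rule: Rpl22 and Dhh, the 15 largest changes in each direction among genes that passed the test, did not overlap between groups and averaged at least 50 counts, the 5 largest for each other comparison, and in each list the members with the smallest p, up to 4 that passed. Fkbp5, Klf9, Sgk1, Per1, Arntl, Nr1d1, Sox10, Mbp, Hspa5, Hes5, Id4, Itga5, Zfp36, Lifr, Osmr, the list members given without library values, and which of these genes appear in the other comparisons were chosen after their values were seen. A few genes are not reported here. Libraries held 39819566 to 53714678 counts, and precision is limited by the number of libraries.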

Additional observations from a re-analysis of the deposited data

Results flagged for a closer look

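Results listed here are those in which the difference between 2 changes or times was itself tested and passed. No explanation was weighed.

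The 12 h change differed between the Dhh and Isl1 pull-downs in 2568 genes. On the log2 scale, the change in Dhh exceeded that in Isl1 by 5.30 for Gpr3, 4.70 for Arc, 4.64 for Tnfrsf12a, 4.03 for Nfil3 and 4.03 for Gadd45b. It was below that in Isl1 for Lyplal1 (-2.58), Dbp (-2.21), Trim7 (-2.21), Prss35 (-2.10) and Mettl8 (-2.07).

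The Dhh pull-down differed between 12 h and 4 h in 3737 genes. The 12 h level exceeded the 4 h level by 5.94 for Slc10a6, 5.84 for Zbtb16, 5.29 for Tnfrsf12a, 4.95 for Plin4 and 4.78 for Fam105a, and it was below it for Zfp663 (-3.11), Lyplal1 (-2.84), Kctd14 (-2.79), Dhrs2 (-2.72) and Fam161b (-2.42). Plin4 and Fam105a were lowest in 12 h replicate 3, at 1.79 and 13.7 CPM.

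Between 24 h and 12 h the Dhh pull-down differed in 3044 genes. The 24 h level exceeded the 12 h level by 3.93 for Kctd14, 2.71 for Lyplal1, 2.69 for Ethe1, 2.59 for Slc16a13 and 2.48 for Pfn4, and it was below it for Fosb (-6.31), Tnfrsf12a (-5.32), Cxcl10 (-4.63), Tmem88 (-4.38) and Dusp1 (-4.16).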

How the results depend on the processing

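With 2 naive Dhh libraries of a separate table added, 1013 genes were higher at 12 h in place of 1905, and the log2 change turned to -0.0737 for Ccnd3, 0.0471 for Dhh, -0.29 for Foxd3, 0.20 for Lifr, -0.54 for Mbp, -1.38 for Mt1, -0.51 for Pecam1, -0.999 for Prph, -0.25 for Psmb7 and -0.32 for Rpl4. Without naive replicate 3 Dhh reached 0.0211. The causes were not tested. Without single libraries, 1508 to 2006 genes were higher and 1258 to 1814 lower at 12 h against naive (2766 to 3820 in all). Against 4 h the range was 1555 to 2162 higher and 1321 to 2041 lower (2882 to 4203). For 24 h against 12 h it was 637 to 1524 higher and 862 to 1773 lower (1499 to 3243), lowest without 24 h replicate 3, which leaves 1 library assumed to vary like the other groups. For the difference from Isl1 it was 1008 to 1425 and 894 to 1574 (1902 to 2999). The 6 libraries fitted alone gave 1604 higher and 1288 lower genes, and DESeq2's test 2037 and 1850. Samples share only replicate numbers: deviations of same-numbered 12 h and naive libraries correlated at 0.029, -0.046 and -0.050, and with a replicate block 1863 genes were higher and 1748 lower, with 1920 and 1819 against 4 h, 1371 and 1601 at 24 h, and 1317 and 1348 for the difference from Isl1. The block ended the calls of Fa2h, Rpl22 and Rps10. Of the 169 named genes called at 12 h, 43 lost that call under at least 1 alternative, and the 10 named for each other comparison kept theirs under every alternative run. The number of libraries limits these values, and the effect of depth, which bears on genes at low counts, was not tested.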

Other observations

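Genes were also grouped by the first letters of their symbols, a grouping chosen after the data were seen and given without a test. Of 276 tested genes named Zfp, most of which encode zinc finger proteins, 31 were higher and 79 lower at 12 h, with a median log2 change of -0.26, against 17.3% higher and 15.6% lower over all genes. Of 17 genes named Mettl, which encode methyltransferase-like proteins, 1 was higher and 7 lower (median -0.55). Of 47 mitochondrial ribosomal protein genes named Mrpl, 1 was higher and 11 lower (23.4% lower, median -0.34). Of 26 named Mrps, 0 were higher and 5 lower (19.2% lower, median -0.27), a share near that over all genes.

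In the other direction, 8 of 16 genes named Kdm, which encode histone demethylases, were higher and 1 was lower (median 0.30). Of 13 genes of the Klf family of transcription factors 7 were higher and 0 lower (median 0.53), and of 23 genes named Sec, most of them parts of the secretory pathway, 10 were higher and 2 lower (median 0.30).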
